A study of Mus musculus with 8 samples.

Results

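The β-catenin core and the direct WNT target genes were followed in intestinal crypts of Mex3a knockout mice. The 10 genes, chosen by symbol, were 5 core genes (Ctnnb1, Apc, Axin1, Gsk3b and Tcf7l2) and 5 target genes (Axin2, Nkd1, Tcf7, Myc and Ccnd1), out of 55114 genes in the table. Each symbol matched 1 gene, and all 10 passed the filter on low counts with 16109 genes in all. RNA was sequenced from crypts released with EDTA from 4 KO mice (genotype Mex3a-/-) and 4 littermate controls (labelled Ctrl, here WT), all C57BL/6 and 8 weeks old. The KO allele is constitutive: it lacks exon 1 and part of exon 2 in every tissue, so cells outside the epithelium carry it too. MEX3A is an RNA-binding protein, and the study asked how its loss alters the crypt transcriptome and WNT signaling.

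WNT signaling acts through β-catenin, the protein of Ctnnb1. Without WNT, a destruction complex built on the scaffolds AXIN1 and APC holds β-catenin while the kinase GSK3β phosphorylates it, which marks it for degradation. With WNT, β-catenin enters the nucleus, binds TCF factors such as TCF7L2 (TCF4) and TCF7 (TCF-1), and turns on target genes. In the intestine this keeps the crypt base stem cells and progenitors dividing. The control of β-catenin is largely at the protein level, which RNA counts do not measure, whereas target genes respond at the RNA level.

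Between 20324184 and 30654105 reads per mouse were counted on genes. Mex3a itself had 236 to 328 counts in WT mice and 6 to 28 in KO mice, with a log2 fold change of -4.43 (standard error 0.43, adjusted p = 0.0310 in edgeR's quasi-likelihood test). It was the only gene called at an adjusted p under 0.05, or 0.00621% of genes tested. This call was lost in the fit blocked on replicate number (adjusted p = 0.126) and in 6 of 8 fits without 1 mouse, while the log2 fold change stayed between -4.87 and -4.17 in these fits. Replicates 1 and 2 of each genotype carried Ddx3y of the Y chromosome and replicates 3 and 4 carried Xist, so replicate numbers also follow sex. Of the lists of cell type markers, 0 genes passed the adjusted threshold in edgeR's test, and DESeq2 called 1, where it called 0.577% of all genes. This was the epithelial keratin Krt8 (log2 fold change 0.27, adjusted p = 0.0339), with every KO mouse above every WT mouse, as in 2.17% of all genes. The 7 epithelium markers summed to 9124 to 9727 CPM (counts scaled to library size) in WT and 10390 to 11935 in KO, against 14.9 to 33.1 for the 10 stroma markers over both genotypes, where Pdgfra was at 0 in 1 mouse or more. The 9 villus enterocyte markers summed to 1265 to 3655 CPM in WT and 2228 to 8748 in KO. KO replicate 3 was highest, against 2228 to 5459 CPM in the other KO mice. All 9 had positive log2 fold changes, with a median of 0.94, and 3 were higher at an unadjusted p under 0.05 (5.33% of all genes were), or 4 with a block on replicate number (7.14% of all genes). In such bulk samples, fewer cells of a type and less RNA per cell cannot be told apart.

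Because the deleted gene encodes an RNA-binding protein, the 3'UTRs of the members were searched for the MEX3A recognition element that the study used, a pair of 4-base motifs with a gap of 0 to 8 bases. All 10 members held at least 1 match in the 3'UTR of their longest coding transcript (GENCODE M21, GRCm38), and so did 74.2% of the 13004 tested genes with a 3'UTR. Myc held 1 match in 442 bases, and Ccnd1 held 11 in 2676. Overlapping matches were counted separately, and some of those in Ccnd1 share their end. Matches are shown for 3 target genes, Nkd1 and Tcf7 (with 2 matches each) and Axin2 (the first 2 of 4), with the element and its gap in capitals. All read along the transcript, in exon 8 of Nkd1, exon 10 of Tcf7 and exon 11 of Axin2.
Nkd1, chr8:88593258-88593280, plus strand: gacagaATAGGTTTTTAtcagac
Nkd1, chr8:88593735-88593754, plus strand: gtctccTGAGTTTAgcacgg
Tcf7, chr11:52253473-52253493, minus strand: gggggaTTAGATCTAtgtaga
Tcf7, chr11:52252467-52252494, minus strand: agtgtgGTAGTGTGCACCTATAacccca
Axin2, chr11:108950433-108950459, plus strand: tgtactATAGGCCTGTGTATAgtgtag
Axin2, chr11:108950692-108950715, plus strand: ttataaAGAGTTCATTTAaagaaa
A match is a run of letters and no evidence of binding, and both core and target genes had matches.

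Promoter windows of RefSeq (GRCm38.p6, 250 bases before to 50 after the start) were searched on both strands for the TCF/LEF letters CTTTGAT and CTTTGAA. Of 32851 windows, 8.65% held them. The table gave 9 windows for 6 members (Ctnnb1, Gsk3b, Tcf7l2, Axin2, Nkd1 and Tcf7), and 0 of the 9 held the letters. This speaks only of these letters in these windows. Among other crypt WNT targets, 2 of 17 windows did, and these are shown because they carry the letters that TCF factors read, in capitals.
Sp5, chr2:70474809-70474835, plus strand: gcaaggccccCTTTGATcaggaaaatc
Tnfrsf19, chr14:61038173-61038199, minus strand: tgaatgggggATCAAAGtgacaaacta

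No member passed an adjusted p of 0.05 between KO and WT crypts. At an unadjusted p under 0.05, 1 of the 10 members was lower in KO, Myc, where 3.05% of all genes tested were, and 0 were higher, against 5.33% of all genes. The 5 targets all had negative log2 fold changes, with a median of -0.23, and the 5 core genes had 2 negative and 3 positive values, with a median of 0.051. Leaving out 1 mouse moved the core median between -0.0049 (KO replicate 3 left out) and 0.10 (KO replicate 1), so its sign rested on KO replicate 3. The target median stayed negative, at -0.13 both without WT replicate 4 and without KO replicate 2. Over all genes tested the median was -0.016, and 53.9% were negative. The WT and KO mice overlapped in each of the 10 members. Groups without overlap were found in 1.87% of all genes with KO below WT and in 2.17% with KO above. In the fit blocked on replicate number, Myc was again the only member under an unadjusted p of 0.05, against 4.13% of all genes lower and 7.14% higher.

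**Figure D1:**
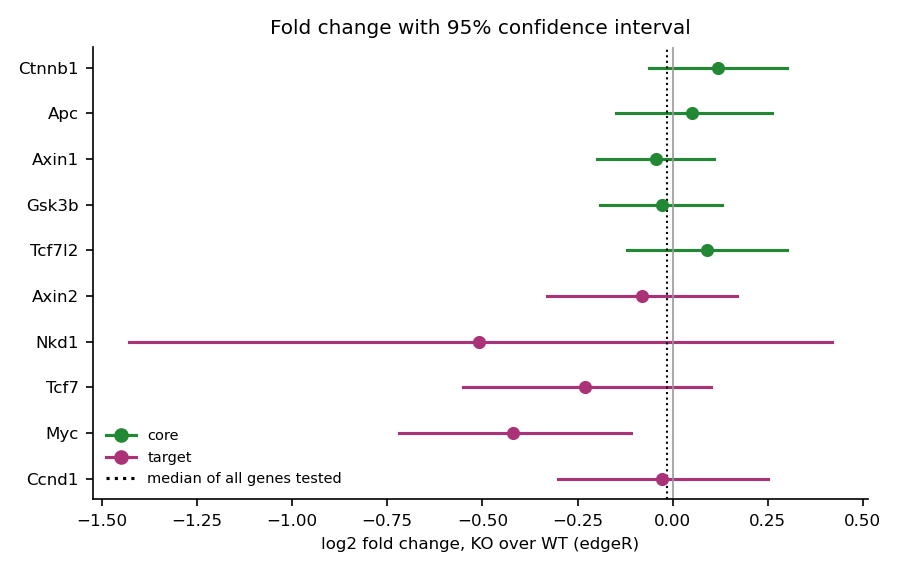
Log2 fold change of KO over WT (edgeR, horizontal axis) for each of the 10 genes, with bars for the 95% confidence interval, core genes in green and targets in purple, and the dotted line at the median of all genes tested (-0.016). The interval of Myc (-0.72 to -0.11) lies below 0, the other 9 cross it, and that of Nkd1 is the widest.

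The core genes varied little between mice. Ctnnb1 (chr9:120929216-120960507, plus strand, GRCm38) had 628, 614, 638 and 634 CPM in WT replicates 1 to 4 and 607, 696, 708 and 716 CPM in KO replicates 1 to 4. KO replicate 1 was the lowest of the 8 mice and the other 3 KO mice were the highest. The mean was 629 ± 10.3 CPM for WT mice and 682 ± 50.7 for KO mice (SD, n = 4). This gave a log2 fold change of 0.12 (standard error 0.079, 95% interval -0.062 to 0.30, adjusted p = 0.728). The unadjusted p was 0.175. Leaving out KO replicate 1 gave a log2 fold change of 0.17 and an unadjusted p of 0.0388, the only one of 17 alternatives under 0.05, and the sign was positive in all 17.

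Apc, the scaffold whose loss starts most intestinal tumors, had 116, 101, 115 and 106 CPM in WT replicates 1 to 4 and 101, 105, 127 and 121 in KO replicates 1 to 4. Axin1 (chr17:26138688-26195811, plus strand), the other scaffold of the complex, had 94.4, 86.6, 90.6 and 87.6 CPM in WT and 94.2, 81.4, 87.0 and 85.5 in KO. For Axin1 each KO mouse was below the WT mouse of its number, but the groups overlapped. The log2 fold change was 0.051 (standard error 0.091, 95% interval -0.15 to 0.26, adjusted p = 0.927) for Apc and -0.045 (standard error 0.067, 95% interval -0.20 to 0.11, adjusted p = 0.907) for Axin1. The sign of Apc turned without KO replicate 3 (-0.0049), and Axin1 ranged from -0.085 without KO replicate 1 to -0.010 without KO replicate 2.

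Gsk3b (chr16:38089001-38246084, plus strand), the kinase of the complex, had 102, 95, 101 and 96.1 CPM in WT and 89.4, 96.1, 107 and 94.8 in KO, with both the highest and the lowest mouse among the KO mice. Its log2 fold change was positive (0.0072) without the lowest, KO replicate 1. Tcf7l2 (chr19:55741810-55933654, plus strand), the main TCF factor of the adult gut epithelium, had 32.6, 31.5, 30.6 and 29.7 CPM in WT and 32.5, 38.0, 29.2 and 32.7 in KO. KO replicate 2 stood highest, and leaving it out took the log2 fold change from 0.091 to 0.022. The 95% intervals were -0.19 to 0.13 for Gsk3b (log2 fold change -0.029, adjusted p = 0.951) and -0.12 to 0.30 for Tcf7l2 (adjusted p = 0.834), so a log2 difference beyond 0.30 in either direction lay outside the interval of every core gene.

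The spread between mice of 1 genotype was set beside that of all genes. The coefficient of variation in WT was 1.65% to 6.85% over the 5 core genes and 12.6% to 42.3% over the 5 targets, where the median of all genes tested was 14.4%. In KO it was 6.16% to 11.0% for core genes and 6.90% to 49.2% for targets, so the ranges overlapped there, with a median of 14.6% over all genes. Counting error alone would give 0.799% for Ctnnb1, 4.93% for Tcf7 and 7.07% for Nkd1, the gene with the fewest counts (92 to 327 per mouse).

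**Figure D2:**
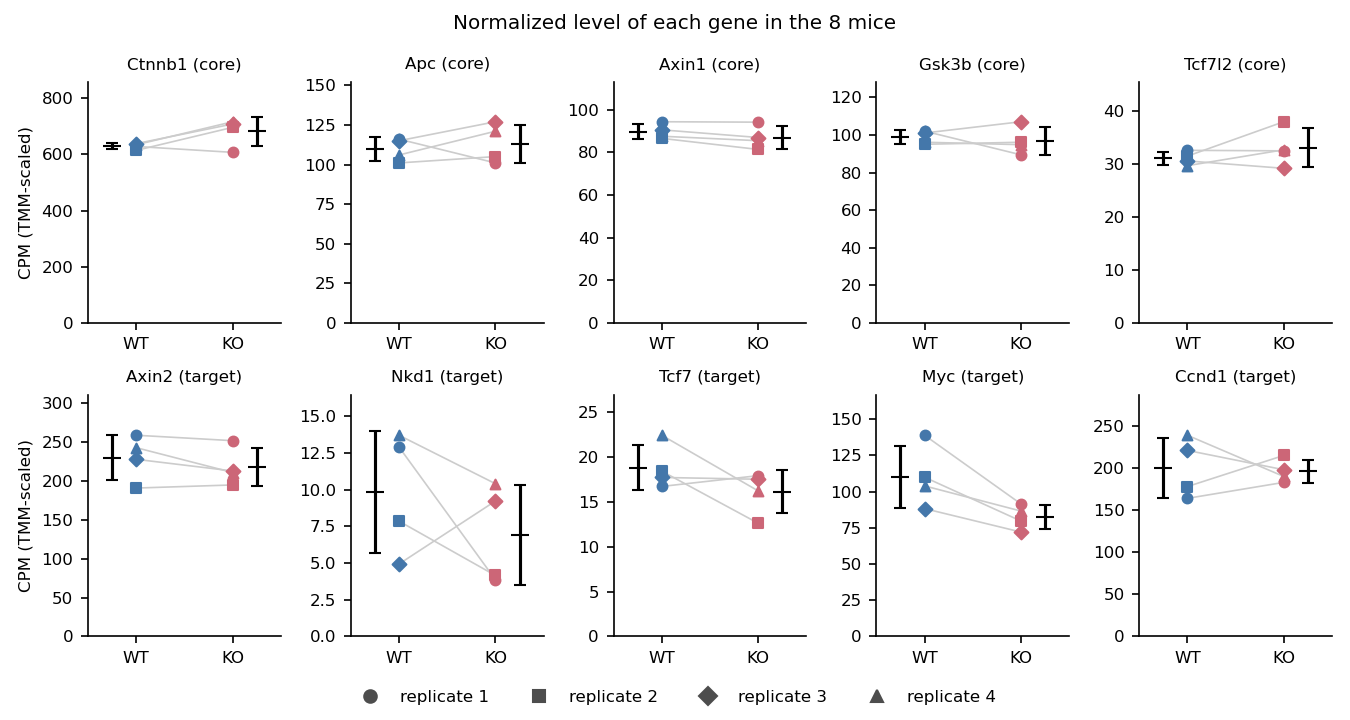
Normalized level in CPM (vertical axes, each from 0) of the 5 core genes (upper row) and 5 target genes (lower row) in WT and KO mice. Each point is 1 mouse with its symbol for the replicate number, grey lines join equal numbers, and black bars are the mean ± SD of 4 mice. For Myc all 4 lines go down, while the points of WT and KO overlap in every panel.

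Per length, in the deposited FPKM (fragments scaled to gene length and library size), the levels spanned a wide range in WT: Ctnnb1 was highest at 120 ± 2.19, followed by Ccnd1 at 42.2 ± 7.54, Axin2 at 41.5 ± 5.12 and Myc at 40.2 ± 7.56 (SD, n = 4 mice). The last 3 overlapped between mice. Axin1 followed at 23.3 ± 0.851 and Gsk3b at 9.96 ± 0.369 FPKM. Tcf7 (7.10 ± 0.945) and Apc (6.90 ± 0.467) overlapped with each other, and Tcf7l2 (3.53 ± 0.132) and Nkd1 (2.14 ± 0.898) were the lowest. In KO crypts Myc was at 30.3 ± 3.15 and Nkd1 at 1.51 ± 0.742 FPKM. The target Axin2 thus stood above Axin1 per length in every mouse, with a ratio of FPKM of 1.78 ± 0.184 in WT and 1.74 ± 0.0843 in KO.

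Myc (chr15:61985391-61990374, plus strand), which encodes a transcription factor for growth and ribosome synthesis, was the member with the smallest p. It had 139, 110, 88.3 and 104 CPM in WT replicates 1 to 4 and 91.5, 79.7, 72.1 and 86.6 in KO replicates 1 to 4. Each KO mouse was below the WT mouse of its number, and KO replicate 1 was above the lowest WT mouse. Its log2 fold change was -0.42 (standard error 0.14, 95% interval -0.72 to -0.11, adjusted p = 0.518), with an unadjusted p of 0.0125. Blocking on replicate number in edgeR gave an adjusted p of 0.207 (0.00158 before adjustment). The unadjusted p stayed under 0.05 in all 17 alternatives (0.00158 to 0.0355), and the adjusted p lay between 0.203 and 0.952. WT replicate 1 had the highest level, and leaving it out brought the log2 fold change to -0.29.

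The MYC network was read from a list of its partners and antagonists and from a list of 18 MYC target genes. Of the MYC target genes, 15 of 18 had negative log2 fold changes (83.3%, against 53.9% of all genes), with a median of -0.10, and 2 had an unadjusted p under 0.05, both lower (3.05% of all genes were). The median was -0.069 without WT replicate 2 and -0.16 without KO replicate 1. The 2 with an unadjusted p under 0.05 were Polr1b and Gnl3. Polr1b, a subunit of RNA polymerase I, was at 82.5 ± 5.93 CPM in WT against 64.8 ± 8.25 in KO (SD over 4 mice). Gnl3 (nucleostemin) was at 103 ± 4.59 against 87.2 ± 11.1 CPM. The log2 fold changes were -0.35 for Polr1b (standard error 0.10, adjusted p = 0.518) and -0.24 for Gnl3 (standard error 0.093, adjusted p = 0.557). Of the 10 genes of the MYC network, 3 had an unadjusted p under 0.05, 1 lower and 2 higher (3.05% and 5.33% of all genes). Blocking on replicate number added Mycl as lower (-0.22), where 4.13% of all genes were lower. Mga was lower (log2 fold change -0.36, adjusted p = 0.545, and -0.22 with WT replicate 1 left out). Mxd1, which competes with MYC for MAX and marks differentiating cells, was higher, at 54.5 ± 33.7 CPM in WT and 106 ± 40.4 in KO (log2 fold change 0.96, standard error 0.40, adjusted p = 0.578, and 1.49 with WT replicate 4 left out). Mlx was higher by less (log2 fold change 0.17, adjusted p = 0.589). Mxd1 was highest in KO replicates 3 and 4 and WT replicate 4, the mice in which the villus enterocyte markers were highest (8748, 5459 and 3655 CPM), and the part of these cells in it was not tested. These mice carried Xist, as did WT replicate 3 (44.9 CPM of Mxd1), and the part of sex was not tested either.

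Nkd1 (chr8:88521354-88594884, plus strand), a feedback inhibitor that binds Dishevelled, varied most of the 10. It had 12.9, 7.85, 4.93 and 13.7 CPM in WT replicates 1 to 4 and 3.86, 4.15, 9.22 and 10.4 in KO replicates 1 to 4, a 3.54-fold range over the 8 mice. KO replicates 1 and 2 were the lowest, KO replicates 3 and 4 lay within the WT range, and replicate 3 was the only number in which KO exceeded WT. KO replicates 1 and 2 carried Ddx3y and KO replicates 3 and 4 Xist, and the part of sex was not tested. Nkd1 had a log2 fold change of -0.51 (standard error 0.41, 95% interval -1.43 to 0.42, adjusted p = 0.781), so the difference was smaller than the spread between mice. Leaving out KO replicate 4 gave -0.78. The value was -0.31 both without WT replicate 4 and without KO replicate 1, and -0.32 without KO replicate 2.

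The order of the mice for Nkd1 was close to that of Paneth cell markers and of Lgr5, the receptor that marks crypt base stem cells. The 6 Paneth cell markers, led by Lyz1, Defa24 and Itln1, summed to 43901, 14841, 16823 and 25369 CPM in WT replicates 1 to 4 and 12420, 7390, 17645 and 24091 in KO replicates 1 to 4. WT replicates 1 and 4 and KO replicates 3 and 4 had the 4 highest sums and the 4 highest Nkd1 levels, and KO replicates 1 and 2 the 2 lowest of both. Lgr5 had 104, 62.7, 75.3 and 109 CPM in WT and 55.0, 44.7, 65.4 and 83.1 in KO. Notum, another WNT target, was likewise lowest in KO replicates 1 and 2 (0.168 and 0.194 CPM). It was highest in WT replicates 4 and 1 (1.17 and 0.601 CPM), so its levels were low throughout. All 6 Paneth markers had negative log2 fold changes, with a median of -0.67. This includes WT replicate 1, whose sum (43901 CPM) stood well above the 14841 to 25369 CPM of the other WT mice. None had an unadjusted p under 0.05 (3.05% of all genes were lower). With the block on replicate number 1 was lower (Defa24), where 4.13% of all genes were. The part of the crypt base cells in the level of Nkd1 was not tested, and the likeness was noticed after the values were seen.

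**Figure D3:**
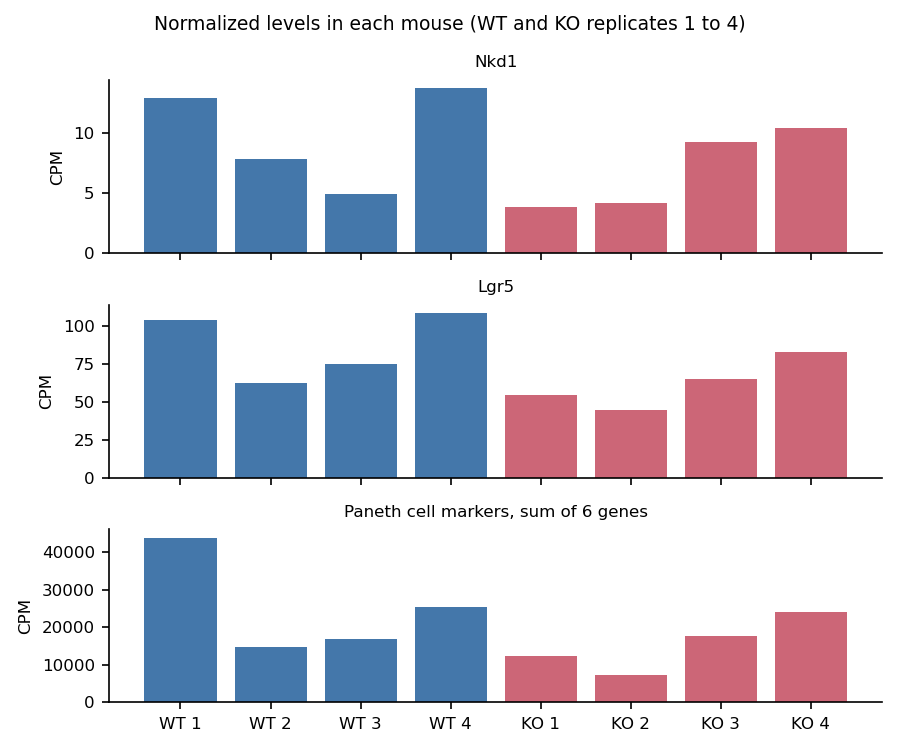
Level in CPM (vertical axes, each from 0) of Nkd1, Lgr5 and the sum of 6 Paneth cell markers in each mouse, WT in blue and KO in red. WT replicates 1 and 4 are the highest WT mice for Nkd1 (12.9 and 13.7 CPM) and for the markers (43901 and 25369 CPM), and KO replicates 1 and 2 are the lowest for both.

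Tcf7 (chr11:52252371-52283014, minus strand) encodes TCF-1, which is both a nuclear partner and a target of β-catenin and is also a factor of naive T cells. It had 16.7, 18.4, 17.7 and 22.4 CPM in WT and 17.9, 12.6, 17.5 and 16.2 in KO. KO replicate 2 was lowest and WT replicate 4 highest, and the other 6 mice lay between 16.2 and 18.4. Tcf7 had a log2 fold change of -0.23 (standard error 0.14, 95% interval -0.55 to 0.10, adjusted p = 0.702), which was -0.13 both without WT replicate 4 and without KO replicate 2. The 12 T cell markers summed to 10.6 to 20 CPM in WT and 15.1 to 42.5 in KO, with 11 of 11 tested markers positive and 4 higher at an unadjusted p under 0.05 (Cd3e, Cd8a, Lck and Ccr7), where 5.33% of all genes were. With the block 5 were higher, against 7.14% of all genes. None of the 12 was at 0 in any mouse. The part of T cells in the level of Tcf7 was not tested. The related Lef1 was under 1 CPM in each of the 8 mice.

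To compare a target with its core relative without the scaling between libraries, ratios were taken within each mouse. Tcf7 over Tcf7l2, as a ratio of CPM, was 0.607 ± 0.103 for WT and 0.494 ± 0.116 for KO mice (SD over 4 mice). KO replicate 2 had the lowest ratio, 0.332, and KO replicate 3 (0.6) was above 3 of the 4 WT mice. The log2 difference was -0.32 (two-sided exact permutation test, p = 0.229, 0.457 adjusted over the 2 ratios). It was -0.14 when KO replicate 2 was left out and -0.21 when WT replicate 4 was. Axin2 over Axin1 was 2.56 ± 0.264 in WT and 2.50 ± 0.121 in KO, with a log2 difference of -0.031 (two-sided exact permutation test, p = 0.714, 0.714 adjusted), and the sign turned without WT replicate 1 (0.0039) and without WT replicate 4 (0.010). The smallest p that 4 against 4 mice allow is 0.0286.

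Axin2 (chr11:108920349-108950783, plus strand), a scaffold like AXIN1 that is induced by WNT and often used as its readout, had 259, 191, 228 and 243 CPM in WT and 252, 195, 213 and 211 in KO. WT replicate 2 and KO replicate 2 were the lowest mice, and WT replicate 1 and KO replicate 1 the highest, so mice of equal number shared both extremes. Axin2 had a log2 fold change of -0.080 (standard error 0.11, 95% interval -0.33 to 0.17, adjusted p = 0.896). It was -0.16 both without WT replicate 2 and without KO replicate 1. Leaving out WT replicate 1 or 4 gave -0.019 and -0.052, and leaving out KO replicate 2 gave -0.027.

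Ccnd1 (cyclin D1; chr7:144929931-144939925, minus strand), which with CDK4 and CDK6 moves cells into S phase, had 164, 178, 221 and 239 CPM in WT and 183, 215, 198 and 190 in KO. The KO mice all lay within the WT range. Ccnd1 had a log2 fold change of -0.028 (standard error 0.12, 95% interval -0.30 to 0.25, adjusted p = 0.977), and its sign turned when WT replicate 3 (0.025) or 4 (0.068), or KO replicate 1 (0.0037), was left out. Of its 10 partners and inhibitors, 3 were higher at an unadjusted p under 0.05 (5.33% of all genes were) and 0 lower, while 6 were negative and the median was -0.050. The inhibitors Cdkn1b (-0.10) and Cdkn2c (0.022) were not among the 3. Blocking on replicate number added Cdk6 as lower (-0.23), where 4.13% of all genes were lower. Cdkn1a (p21), a CDK inhibitor, had 65.4, 52.7, 58.9 and 76.7 CPM in WT and 90.2, 89.8, 111 and 135 in KO. Every KO mouse was above every WT mouse, as in 2.17% of all genes. Cdkn1a had a log2 fold change of 0.75 (standard error 0.16, 95% interval 0.39 to 1.10, adjusted p = 0.429 in edgeR's test). DESeq2 gave an adjusted p of 0.00399, where 0.577% of genes had an adjusted p under 0.05, and over the 17 alternatives no other fit called it. The villus enterocyte markers were highest in KO replicates 3 and 4 (8748 and 5459 CPM), as Cdkn1a was. WT replicate 4 had a higher marker sum (3655 CPM) than KO replicates 1 and 2 (2228 and 2774). Its Cdkn1a level was below theirs. KO replicates 3 and 4 carried Xist and KO replicates 1 and 2 Ddx3y. The parts of villus cells and of sex in the level of Cdkn1a were not tested.

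Cdkn2b (p15), an inhibitor of CDK4 and CDK6, had 29.2 ± 4.47 CPM in WT and 45.4 ± 10.2 in KO (log2 fold change 0.64, standard error 0.17, adjusted p = 0.518), and Rb1, the brake that cyclin D complexes release, had 56.2 ± 6.20 and 67.9 ± 8.68 CPM (log2 fold change 0.27, adjusted p = 0.566). Ccnd2 (377 ± 32.1 and 355 ± 16.9 CPM in WT and KO) had the opposite sign (log2 fold change -0.085, adjusted p = 0.824). The 8 proliferation markers, such as Mki67 and Pcna, summed to 1785 to 2190 CPM in WT and 1636 to 2094 in KO. Of these, 7 of 8 were negative, with a median of -0.043 on the log2 scale and 0 at an unadjusted p under 0.05.

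The rest of the pathway was described by lists. Of the 16 tested genes of the destruction complex and of β-catenin turnover, 8 were negative and 8 positive, with a median log2 fold change of -0.0034 whose sign depended on the scaling (0.0017 with RLE factors), and 0 had an unadjusted p under 0.05. The largest differences among those of at least 1 CPM on average were Rnf146 (0.12, adjusted p = 0.799), a ligase for AXIN, and Amer1 (-0.10, adjusted p = 0.852), a partner of APC. Amer1 was -0.025 without WT replicate 4 and -0.16 without WT replicate 2. Of 16 tested nuclear partners, 10 were negative, with a median of -0.021 and 0 at an unadjusted p under 0.05; the corepressor Tle2 had -0.42 (adjusted p = 0.779) and the coactivator Crebbp -0.16 (adjusted p = 0.716). Single mice carried much of both, since Tle2 was -0.15 and -0.74 with WT replicate 4 or KO replicate 4 left out, and Crebbp was -0.051 with WT replicate 1 left out. Of the 14 tested genes of the cytoplasmic relay, 9 were negative, with a median of -0.058 (-0.088 without WT replicate 2 and -0.041 without WT replicate 1). At an unadjusted p under 0.05, 2 were lower (3.05% of all genes were). Both are FRAT proteins, which bind GSK3. Frat2 had 83.4, 81.9, 95.3 and 86.3 CPM in WT and 80.8, 72.8, 72.4 and 73.9 in KO, with every KO mouse below every WT mouse, as in 1.87% of all genes (log2 fold change -0.21, standard error 0.072, adjusted p = 0.520). Frat1 had the same log2 fold change, -0.21 (standard error 0.088, adjusted p = 0.576).

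Other WNT targets of the crypt were also mostly negative. Of 17 tested, 14 were negative (82.4%, against 53.9% of all genes), with a median log2 fold change of -0.24, next to -0.23 for the 5 target members. Over the same mice the 6 Paneth cell markers had a median of -0.67 and the 9 villus enterocyte markers one of 0.94. WT replicate 1 had the highest Paneth sum (43901 CPM) and KO replicate 3 the highest villus sum (8748 CPM). The part of these cells in the list was not tested. At an unadjusted p under 0.05, 4 were lower (3.05% of all genes were) and 0 higher, and blocking on replicate number gave 8 lower (4.13% of all genes). The ligases Znrf3 (-0.31, standard error 0.10, adjusted p = 0.518) and Rnf43 (-0.28, standard error 0.11, adjusted p = 0.557), which clear WNT receptors, the transporter Slc12a2 (-0.25, standard error 0.11, adjusted p = 0.586) and Lgr5 (-0.50, standard error 0.22, adjusted p = 0.592) were lower in each of the 4 equal numbers. Sp5, with the TCF/LEF letters shown above in its promoter window, had 14.2 ± 3.09 CPM over the WT mice and 13.6 ± 2.89 over the KO mice (SD; log2 fold change -0.063, adjusted p = 0.964). The list was chosen with earlier results of these mice known, and several of its genes mark stem cells, so its count is not independent evidence.

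**Figure D4:**
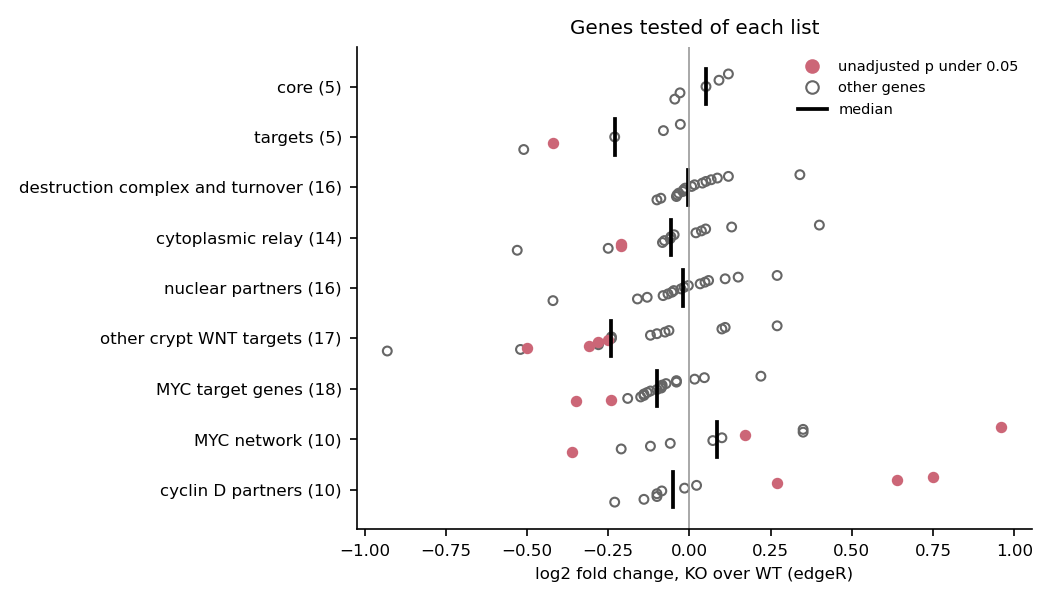
Log2 fold change of KO over WT (edgeR, horizontal axis) for each tested gene of 9 lists, with the number tested in brackets, filled red points for an unadjusted p under 0.05 and black bars for the list median. The medians are 0.051 for the core, -0.23 for the target members and -0.24 for other crypt WNT targets, and red points on the right belong to the MYC network and cyclin D partners.

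The genes most alike to Myc and to Axin2 over the 8 mice were found by the root mean square difference of log2 CPM after centring, among 9555 other genes of at least 10 CPM. For Myc they were Adra2a (0.0672), Rgmb (0.0761) and Zfp317 (0.0911). Adra2a, an adrenergic receptor, had 86.3, 59.6, 52.1 and 64.4 CPM in WT and 57.3, 45.8, 42.0 and 49.6 in KO, highest in WT replicate 1 and lowest in KO replicate 3 like Myc. For Axin2 they were Nemf (0.0466), Ppp1ccb (0.0597) and Nhs (0.0642).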

How the data were processed

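RNA-seq of crypts from 4 WT and 4 KO mice was analysed, 1 library per mouse. The submitters' processing notes list CASAVA, HISAT2 2.0.5 and featureCounts 1.5.0-p3; the genome build and strandedness are not given in the sources used here. The authors deposited raw counts per gene without normalization, and FPKM values scaled by gene length and library size. Gene coordinates in the file match GRCm38. Columns with the authors' own comparison (fold changes and p-values) and their list of changed genes were not used.

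Counts were compared with edgeR 4.0.16 in R 4.3.3 across all 16109 genes that passed filterByExpr (minimum count 10), with TMM factors, the quasi-likelihood test, genotype as the only term and Benjamini-Hochberg adjustment. CPM are TMM-scaled. Standard errors are the log2 fold change over the root of F. Paralogue ratios were tested by an exact permutation test over 70 assignments (scipy 1.17.1). On simulated counts with 200 of 16109 genes changed, the test recovered 58.0% of 2-fold and 87.0% of 4-fold changes, with 4.61% false calls. Each gene was drawn independently, without differences of sex or cell content shared between genes. No member differed by 2-fold, so these shares do not cover differences of the size seen in the members.

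The members and lists were chosen with earlier results of these data known. Named genes are the members, Mex3a, the 3 genes most alike to Axin2 and to Myc and, per list, up to 4 genes by smallest unadjusted p under 0.05, or else the 2 with the largest log2 fold change in size among those of at least 1 CPM. Others named (Ccnd2, Cdk6, Cdkn1b, Cdkn2c, Mycl, Sp5, Tnfrsf19, Lef1, Notum and markers) were chosen after their values were seen. Skp1 and Tle5 were matched by their older symbols Skp1a and Aes. Deviations of same-numbered mice correlated at 0.129 to 0.501 in all 4 pairs, so the numbers were taken as pairing the mice, which the sources do not state and which may follow sex; the block is printed where it matters. Libraries of 1 genotype were distinct, with a chi-square of at least 23.8 for each degree of freedom. Alternatives were DESeq2 1.42.0, RLE and upper-quartile factors, other filters, limma 3.58.1 on log2(FPKM + 1) or + 0.1, the block, and leaving out each mouse. Intervals cover the spread between mice, and counting error at these depths was below 8% for each member.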

Additional observations from a re-analysis of the deposited data

How the results depend on the processing

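The number of genes called in all, 1 in edgeR's test, was 93 with DESeq2, 2 with no filter on low counts, 3 with limma on log2(FPKM + 1) without a filter, and 0 with at least 10 counts in every mouse, with limma on log2(FPKM + 0.1) or with the replicate number as a block; it ranged from 0 to 4 when 1 mouse was left out. At an unadjusted p under 0.05 the count was 1350, against 1463 with DESeq2, 1256 with at least 10 counts in every mouse, 1054 with limma on log2(FPKM + 0.1) and 1815 with the block; leaving out 1 mouse gave 846 (KO replicate 3) to 2133 (KO replicate 1). Myc was lower at an unadjusted p under 0.05 in each of the 17 alternatives. The log2 fold change of Apc lay between -0.0049 and 0.10 and that of Gsk3b between -0.080 and 0.0072, both with a change of sign when 1 KO mouse was left out, and that of Ccnd1 between -0.11 and 0.068, positive when WT replicate 3 (0.025) or 4 (0.068), or KO replicate 1 (0.0037), was left out. The log2 difference of Axin2 over Axin1 was 0.0039 without WT replicate 1 and 0.010 without WT replicate 4, against -0.031 in all mice, with a lowest value of -0.10. The median of the destruction complex list ranged from -0.011 to 0.033 when 1 mouse was left out, highest without KO replicate 1, and was -0.019 with upper-quartile factors. That of nuclear partners was 0.0074 without WT replicate 1, and that of cyclin D partners 0.013 without WT replicate 2. The block changed no other call on the members. Mex3a lost its adjusted call with the block (-4.51, adjusted p = 0.126), with limma on log2(FPKM + 0.1) (-3.59, adjusted p = 0.0722) and in 6 of 8 fits without 1 mouse, and did not pass the filter of 10 counts in every mouse. The causes were not tested. Of 24 groups of 4 mice, 0 held a mouse past Dixon's limit.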
